A study of Mus musculus with 6 samples.

Results

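The RNA of 3 mouse embryonic stem cell genotypes was sequenced as 2 libraries each, numbered replicate 1 and replicate 2. The 3 libraries numbered 2 were compared with the 3 libraries numbered 1, within each genotype, so that the comparison describes what the replicate number carries in all 3 genotypes. The labels do not say what the number marks, nor whether a pair came from separate cultures, clones or library preparations. Of 19713 genes in the table, 15287 reached a normalized count of 10 in 2 or more of the 6 libraries and were tested. Just inside this limit were Car5a and Ccdc172, whose second highest library was at 10.18, and just outside it Spink2 and Tppp at 9.71. Of the genes tested, 400 reached 10 in no replicate 2 library and 239 in no replicate 1 library. For these the limit itself favours a difference in that direction, of any size.

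The genotypes were wild type (WT), carrying the missense change C54Y on both alleles of Thap1, which encodes a zinc finger transcription factor (C54Y), and lacking exon 2 of Thap1 (KO), all from C57Bl/6 blastocysts. All 6 cultures, per the labels, grew on irradiated mouse embryonic fibroblasts in 15% serum with 1000 units per ml of leukemia inhibitory factor, the cytokine that keeps mouse stem cells undifferentiated. Such feeder cells share the dish with the stem cells, and their RNA can enter a bulk extract. The labels name no clone for any genotype, and whether feeders were removed before extraction is not stated in the sources used here. Pluripotency in these cells rests on a small circuit of transcription factors around OCT4 (Pou5f1), SOX2 and NANOG, and the naive state adds factors such as ESRRB, KLF5 and REX1 (Zfp42). Messenger RNAs also differ in plain physical properties, their length and their share of G and C bases, which library preparation and sequencing can read unevenly.

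The libraries numbered 1 held 40640369 to 46772996 reads and those numbered 2 held 31774656 to 35285464. Genes with reads numbered 18140 to 18481 in replicate 1 and 17061 to 17291 in replicate 2. The 100 most abundant genes took 19.7% to 20.5% of all reads under number 1 and 30.4% to 31.2% under number 2. A 2-sided exact sign-flip test over 3 pairs cannot go below p = 0.25, and each of these measures reached that value. Thap1 itself stood at 432.5, 2253 and 1975 normalized counts in WT, C54Y and KO of replicate 1 and at 701, 2533 and 1687 in replicate 2. It was higher in both mutants than in WT under either number. Its replicate difference was not called (0.21 ± 0.18, adjusted p = 0.318), and the pairs differed in sign (0.69, 0.17 and -0.23). Thap1 was called higher without the KO pair (0.43, adjusted p = 0.00523). The same held with the length and GC trend described below removed (0.70, adjusted p = 0.00101). With the coding trend removed it was not called (-0.38, adjusted p = 0.0869). Since the count covers all exons, it is no check of the deletion or of the missense change.

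Replicate 2 differed from replicate 1 in most genes. By limma on the paired differences, 9917 of 15287 genes (64.9%) passed an adjusted p of 0.05, 4899 higher in replicate 2 (32%) and 5018 lower (32.8%). The libraries of one number lay wholly above those of the other for 9335 genes (61.1%). The falls were the larger changes: 413 genes were over 8-fold lower in all 3 genotypes and 13 were over 8-fold higher. At over 2-fold the counts were 2626 lower and 1302 higher. Log2 differences here are of the normalized count plus 2, which understates the change of low genes. The normalized counts of a typical gene were level between the numbers (median difference 0.01), but with each library scaled to its total reads the mean of the 3 genotypes' medians was -0.355. On that scale 2931 genes were called higher and 6725 lower, so 30.4% of calls were rises against 49.4%. Single genes and list medians below are on the normalized counts unless stated, and are read against that shift.

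Genes that fell were long and poor in G and C, and genes that rose were short and richer in them. To show the property on sequence, 90 bases of coding DNA are given for 4 large chromatin remodelling enzymes, chosen after their values were seen, each in 1 exon, 5′ to 3′ on the coding strand, from GRCm38 with the GENCODE M21 annotation. Capitals mark G and C. ATRX and CHD9 come from genes that fell, CHD4 and SMARCA4 from genes that did not.
Atrx (chrX:105879912-105880001, minus strand): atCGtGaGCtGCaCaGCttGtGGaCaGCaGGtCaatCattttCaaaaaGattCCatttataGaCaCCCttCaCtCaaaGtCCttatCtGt
Chd9 (chr8:90932441-90932530, plus strand): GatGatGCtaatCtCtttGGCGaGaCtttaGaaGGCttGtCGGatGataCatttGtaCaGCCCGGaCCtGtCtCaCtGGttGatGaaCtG
Chd4 (chr6:125100825-125100914, plus strand): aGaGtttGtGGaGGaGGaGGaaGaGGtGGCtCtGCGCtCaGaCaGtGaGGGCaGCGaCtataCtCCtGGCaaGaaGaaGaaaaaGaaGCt
Smarca4 (chr9:21635627-21635716, plus strand): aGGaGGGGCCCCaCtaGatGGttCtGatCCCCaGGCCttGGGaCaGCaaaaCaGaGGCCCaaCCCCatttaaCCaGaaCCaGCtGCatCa
G and C made up 41.1% of the Atrx window, 46.7% of the Chd9 window, 52.2% of the Chd4 window and 56.7% of the Smarca4 window. Each window was picked to lie near the share over the gene's whole coding sequence, which was 40.9% for Atrx and 56.6% for Smarca4.

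The dependence on base composition ran through the whole transcriptome. When genes were ranked by GC content and cut into 10 equal bins, the lowest bin (29.6% to 41.6% of the longest annotated transcript) had a median log2 difference of -1.93 in WT, -1.89 in C54Y and -2.44 in KO. In that bin 81.4% of genes were called lower and 4.68% higher. In the highest bin (58.1% to 74.5%) the medians were 0.51, 0.47 and 0.87, with 4.81% called lower and 54.3% higher. Length ran the other way: the bin of shortest transcripts, up to 1313 bases, had medians of 0.95, 0.97 and 0.87, and the longest, from 6667 bases, -1.09, -1.11 and -1.14. Every genotype had the same order, and the span over GC bins was widest in KO. With 1 pair per genotype, no difference between genotypes could be tested here or below.

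**Figure D1:**
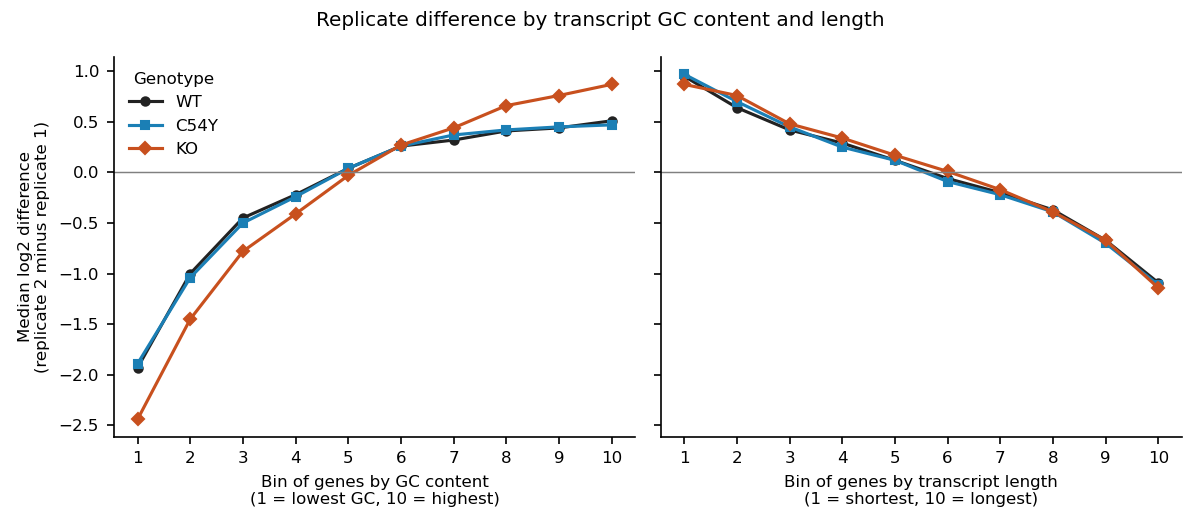
Median log2 difference, replicate 2 minus replicate 1 (vertical axis), in 10 equal bins of genes by transcript GC content (left) and length (right), 1 line per genotype. Medians climb from between -2.44 and -1.89 in the lowest GC bin to between 0.47 and 0.87 in the highest, and decline from the shortest to the longest transcripts in all 3 genotypes.

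Both properties counted together. On a grid of 5 GC bins and 5 length bins, genes lowest in GC and longest (875 genes) stood lowest, with a median of -2.40 and 88.2% called lower. Genes in the opposite corner, with the highest GC and the shortest transcripts (934 genes), had a median of 1.08 and 2.36% called lower. Long genes with the highest GC were near level (-0.10), and short genes with the lowest GC were lower (-0.69). Across genes, GC content alone accounted for 32.9%, 33.1% and 46.2% of the variance of the difference in WT, C54Y and KO, and length alone for 21.5%, 22.6% and 17.5%. Together they accounted for 45.3%, 45.9% and 53.6%. These shares are over 15169 genes, which are not independent replicates. With GC content taken from coding sequence alone, the lowest of 10 bins had a median of -2.10 and the highest 0.49.

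**Figure D2:**
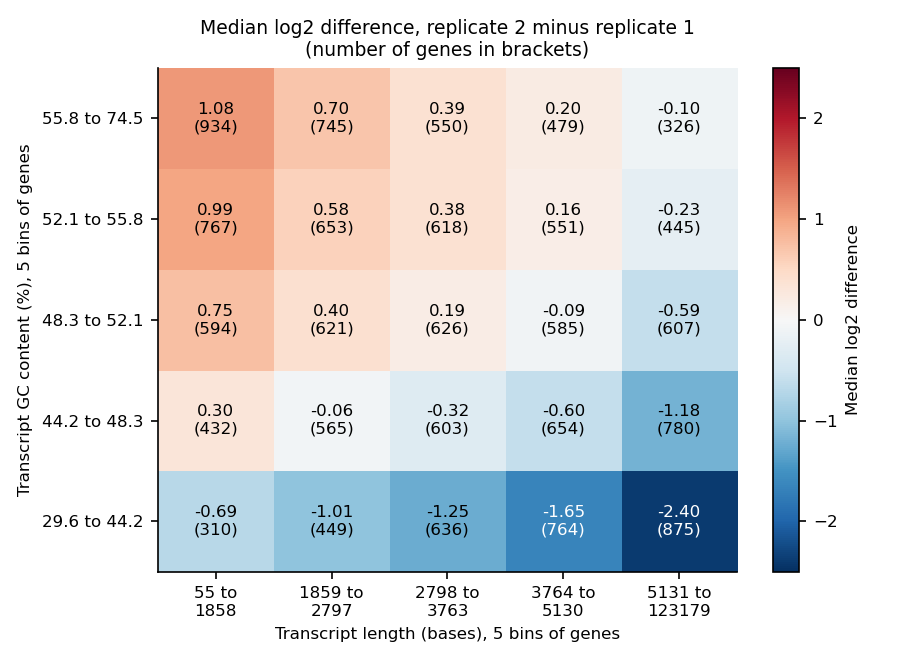
Median log2 difference, replicate 2 minus replicate 1 (colour and upper number), for genes grouped in 5 bins each by transcript GC content in percent (vertical axis) and length in bases (horizontal axis), with the number of genes in brackets. The values run from -2.40 at low GC and long transcripts to 1.08 at high GC and short transcripts.

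A fit that removed this joint trend from every library still called 4560 genes higher (30.1%) and 3832 lower (25.3%) of 15169. Of the genes first called higher, 3000 were called higher again (61.2%), and of those called lower, 2958 (58.9%). A further 560 genes called lower became called higher. Values after removal are given below beside the gene lists, and they depend on the transcript chosen to represent a gene. For Hist1h1d, a linker histone gene whose longest annotated transcript has 7425 bases, the value was 4.74 by transcript length and 1.31 by coding length, against 2.07 with no removal.

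Large subunits of chromatin remodelling complexes, which slide or evict nucleosomes, showed the pattern within a single family. Of 25 tested, 19 fell and 1 rose, against 32.8% and 32% of all genes. Their medians were -0.94 in WT, -1.29 in C54Y and -1.02 in KO. The 6 members with GC content under 46% all fell (-1.78 to -5.37), whereas the 9 at 52% or more lay between -0.69 and 0.55, and 4 of these fell. These bounds were set after the values were seen. Both sets were long, 6113 to 12008 and 5957 to 12479 bases. Atrx, an X-linked gene whose product deposits histone H3.3 at repeats, stood at 16804, 16869 and 27521 normalized counts in WT, C54Y and KO of replicate 1 and at 336, 659.9 and 496 in replicate 2. All replicate 2 libraries lay far below all replicate 1 libraries. The fall was -5.37 ± 0.20 (mean difference ± SE, adjusted p = 5.04e-07), 41.2-fold. Nipbl, the cohesin loader, fell 18.4-fold (-4.20 ± 0.16), and Chd9, a helicase of the CHD family, 13.6-fold (-3.77 ± 0.16). Chd1 fell 6.07-fold and Chd2 4.10-fold. With the coding trend removed the calls of Nipbl (-0.20, adjusted p = 0.101) and Chd1 (adjusted p = 0.988) were lost. Smarca4, the BRG1 motor of the BAF complex, stood at 11045, 12797 and 10947 in replicate 1 and 17343, 15881 and 17554 in replicate 2, and it rose (0.55). Chd4, the motor of the NuRD complex, was at 26137 to 26974 in replicate 1 and 24314 to 26375 in replicate 2 (-0.09, not called).

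**Figure D3:**
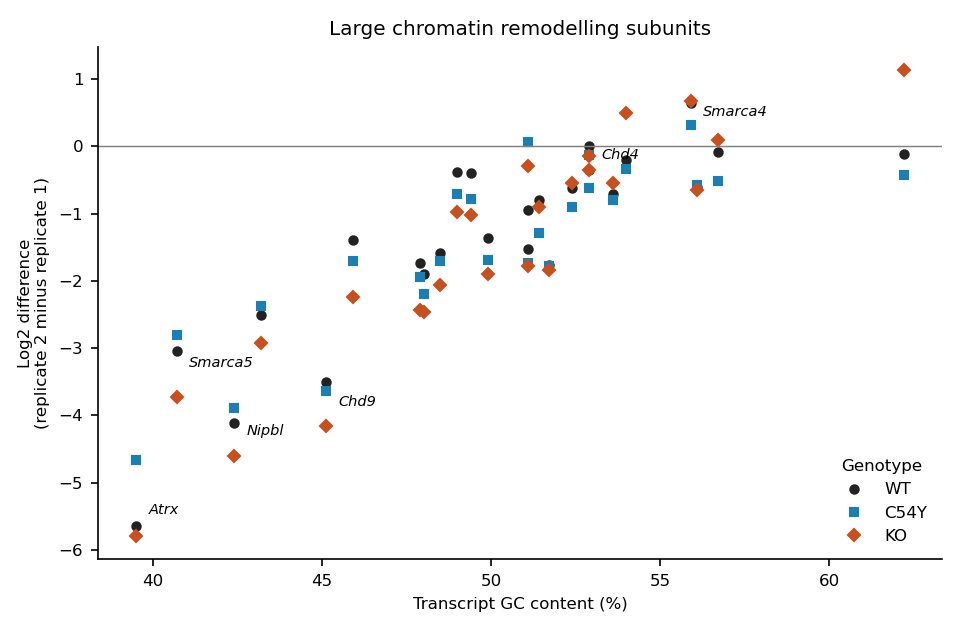
Log2 difference, replicate 2 minus replicate 1 (vertical axis), against transcript GC content in percent (horizontal axis) for 25 large chromatin remodelling subunits, 1 symbol per genotype. Atrx, Nipbl and Chd9 lie at the lower left and Chd4 and Smarca4 near or above 0 at the right.

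The 10 genes with the largest falls dropped 41.2-fold to 92.2-fold, and all 10 had transcripts of 4868 to 10275 bases with a GC content of 33.9% to 43.3%. Arhgap5, which encodes a GTPase-activating protein, went from 3107, 2940 and 3807 normalized counts in WT, C54Y and KO to 16.7, 80.5 and 26.7 (-6.53 ± 0.37, adjusted p = 1.21e-06). Casc5 (also called Knl1), a kinetochore scaffold, went from 1845, 2172 and 2222 to 23.2, 58.5 and 21.6 (-5.97 ± 0.27). Gdap10 went from 225, 278 and 271 to 3.86, 2.60 and 0. In each of these genes the libraries of the 2 numbers lay far apart. The others were Ccdc88a, an actin-binding protein, the nuclear protein gene Lcorl, the CREB3 regulator Crebrf, the zinc finger gene Zfp518a, the Rab escort gene Chm, the Myb family gene Mybl1, and Atrx. With the length and GC trend removed, all 10 were still called lower, from -2.36 for Zfp518a to -4.65 for Gdap10. With the coding length and GC trend removed, the 9 with a coding sequence were called lower, from -0.79 for Zfp518a to -3.84 for Crebrf. Among the replicate 2 libraries, C54Y held the highest remaining count for 9 of the 10, all but Gdap10.

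Most members of a list of long noncoding RNAs fell. The list, named for nuclear-retained RNAs such as Malat1 and Neat1, also holds Gas5 and genes of the Snhg family. Whether each member is retained in the nucleus was not tested. Of 19 members tested, 12 fell and 3 rose (median -1.01), against 32.8% and 32% of all genes. Among all 584 long noncoding RNAs tested 44.3% fell and 14.4% rose, with a median of -0.62. Malat1, a speckle RNA, went from 22083, 19144 and 16129 normalized counts to 1971, 1190 and 1077 (-3.80 ± 0.13, adjusted p = 5.04e-07). Neat1, the scaffold of paraspeckles, fell 4.99-fold and Firre, an X-linked RNA, 3.69-fold. Kcnq1ot1, the imprinted antisense RNA at the Kcnq1 locus, fell 15.4-fold, and without a stated strand setting its reads cannot be told apart from those of the gene it overlaps. After trend removal the list had a median of 0.01, with 6 higher and 8 lower, against 30.1% and 25.3% of all genes. Neat1, Firre, Kcnq1ot1 and Malat1 were all still lower (by 0.57, 1.57, 1.69 and 1.73).

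Splicing factors moved in both directions. Of 32 spliceosome and RNA-binding genes, 18 fell and 10 rose, against 32.8% and 32% of all genes, with a median of -0.60, -0.23 in WT, -0.50 in C54Y and -0.97 in KO. The kinase gene Clk1, which phosphorylates SR proteins, fell 16.4-fold, Luc7l3 8.29-fold and Pnisr 6.02-fold, each still called lower after trend removal (-1.70, -1.11 and -1.43). Srsf1, an SR splicing factor, went from 16955, 17765 and 22148 to 9373, 8012 and 6778 (-1.24) and was called higher after removal (0.96). The list's median became 0.68 with 22 of 32 higher and 8 lower by transcript length, against 30.1% and 25.3% of all genes. It was -0.03 by coding length, so its sign depends on the sequence measured. Imprinted genes likewise had a median of -0.66 (14 of 26 lower, 9 higher) that became 0.19. Peg3, a zinc finger gene expressed from the paternal allele, fell 8.11-fold from 10236 to 10839 counts to 1046 to 1535, whereas H19 rose in all 3 genotypes (0.91, 2.25 and 3.04), and its call was lost without the C54Y pair (adjusted p = 0.214), without the KO pair (0.138) or after trend removal (0.0776).

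The largest rises were of contractile and connective tissue genes. Actg2, the smooth muscle gamma actin, went from 8.96, 11.6 and 8.69 normalized counts in WT, C54Y and KO of replicate 1 to 528, 828 and 634 in replicate 2 (5.81 ± 0.23, adjusted p = 5.47e-07), 56.0-fold. Acta2, the smooth muscle alpha actin, went from 966, 736 and 282 to 11360, 14988 and 14746 (4.53 ± 0.36), and the call was lost without the C54Y pair (adjusted p = 0.0545). S100a4, a calcium-binding protein of fibroblasts, went from 128.5, 93.2 and 133 to 1683, 1758 and 1566 (3.81 ± 0.18). Replicate 2 libraries were close to each other in all 3 genes, and KO of replicate 1 was the lowest library for Acta2. Actin genes have near-identical coding sequences, so reads could be split among them, and how multiply mapped reads were counted is not given in the sources used here. Among the 10 genes with the largest rises were also Lyz2, Tm4sf1 (a tetraspanin-like surface protein), Bgn (the proteoglycan biglycan), Prkcdbp (a caveolar protein), Myl9 (a myosin light chain) and Tgfb3 (a growth factor), which rose 6.51-fold to 28.5-fold. For Myl9 the call was lost without the WT pair (adjusted p = 0.082), without the C54Y pair (0.118) or after trend removal (0.108).

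**Figure D4:**
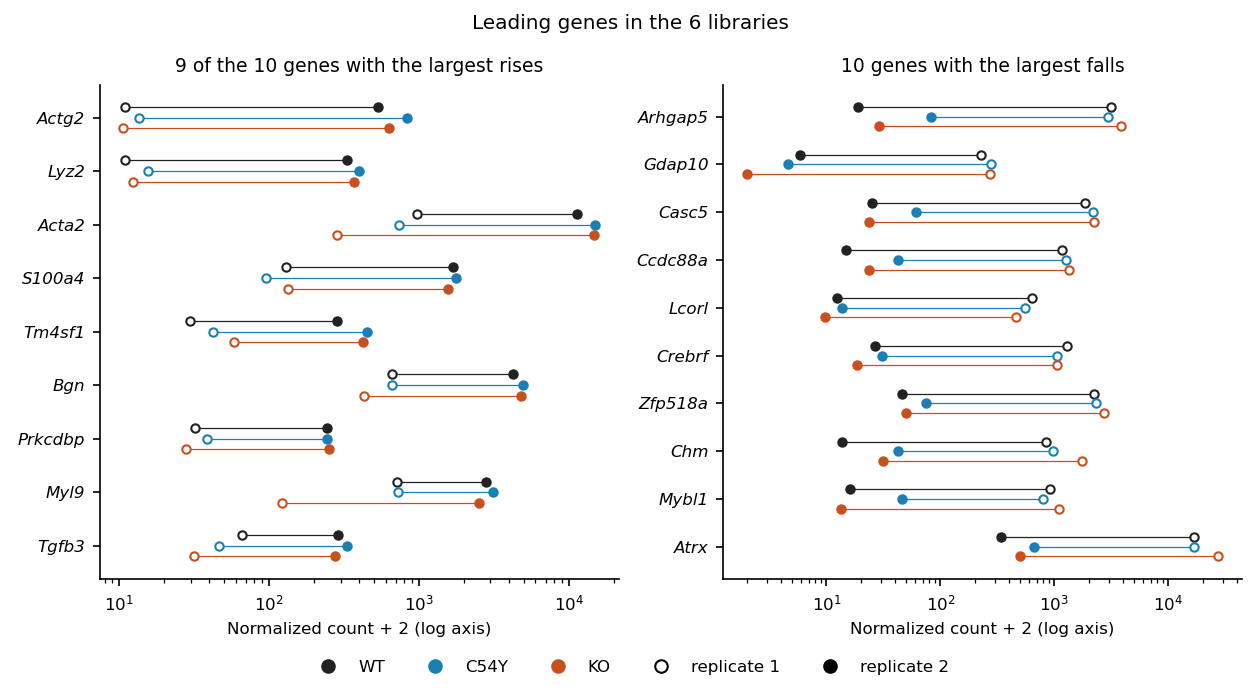
Normalized count plus 2 on a log axis for 9 of the 10 genes with the largest rises (left) and the 10 with the largest falls (right), open symbols for replicate 1 and filled for replicate 2, with a line joining the 2 libraries of a genotype. In all 19 genes the filled and open symbols do not overlap.

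Most fibroblast genes rose. Of 27 tested, 18 rose, 1 fell (Fn1, fibronectin, -0.57) and 19 had no overlap between the numbers, against 32% of all genes called higher and 61.1% not overlapping. The 8 not called were Col5a1, Postn, Dcn, Tagln, Timp3, Twist1, Lox and Thbs1. The median was 1.67, 1.22 in WT, 1.70 in C54Y and 1.83 in KO. Vim, the intermediate filament vimentin, went from 2555, 2553 and 2703 normalized counts to 12883, 14673 and 16277 (2.48 ± 0.11, adjusted p = 6.23e-07). Col1a1, the type I collagen chain, went from 1500, 1651 and 554 to 5855, 6794 and 6735 (2.53 ± 0.29), and Col1a2 rose 4.77-fold. Timp1, a protease inhibitor, rose 3.83-fold and Fbln2, a matrix glycoprotein, 3.91-fold. The collagen rise was larger in KO (3.60 for Col1a1) than in WT (1.96) or C54Y (2.04), and KO of replicate 1 was the lowest of the 6 libraries. After trend removal the list had a median of 1.72 with 21 higher and 1 lower, against 30.1% and 25.3% of all genes, and with scaling to total reads the median was 1.30. Of the 13 feeder fibroblast markers 12 were tested and 9 rose, none fell, and none was at 0 in all libraries. Lum was below the limit. Dcn (0.00), Postn (-0.12) and Twist1 (0.33) were not called. After trend removal Dcn and Postn were called higher (2.61 and 2.81) and Twist1 lower (-0.59). The summed normalized count of the 13 markers was 1911 to 3967 in replicate 1 and 12584 to 14787 in replicate 2. That was 0.00541% to 0.0127% and 0.0302% to 0.0358% of reads. Col1a1 and Col1a2 were the largest parts of the sum in every library. In bulk samples more cells of a type and more RNA per cell cannot be told apart, and the part of feeder cells in these rises was not tested.

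Macrophage genes were low. Of 11 tested, 4 reached 10 in fewer than 2 replicate 1 libraries and so would not have passed the limit without replicate 2, which favours a rise. Of the other 7, 4 rose and none fell (median 0.89), against 33.4% higher among all genes at 10 in 2 libraries of each number. Lyz2, the lysozyme of macrophages, went from 8.96, 13.6 and 10.4 normalized counts to 329, 396 and 369 (4.83 ± 0.24). Emr1, which encodes the F4/80 surface protein, went from 2.99, 1.36 and 0 to 19.3, 33.8 and 21.6, and Tyrobp, a signalling adaptor, from 0, 0.680 and 0 to 9.01, 15.6 and 30.6. These 2 genes sat near the limit of detection in replicate 1 and are among the 4. The reads of Lyz1, another of the 4, could be shared with its close copy Lyz2. Csf1r, the receptor of the macrophage growth factor, went from 17.9, 10.9 and 3.48 to 37.3, 46.8 and 34.4, whereas Cd68 overlapped between the numbers (0.25, not called). After trend removal Lyz2 (4.39) and Csf1r (1.79) were still called higher, and Cd68 was called lower (-0.58, adjusted p = 0.0407). Cd14 and Cd74, which had also risen among the 7, lost their calls (adjusted p = 0.574 and 0.989). Of the 5 blood and macrophage markers 3 were tested. Csf1r rose, Cd68 was not called, and Tyrobp rose but would not have passed the limit without replicate 2. The leukocyte marker Ptprc was below the limit.

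Cytoskeletal targets of the YAP and SRF pathways were mixed. Of 20, 11 rose and 4 fell, against 32% and 32.8% of all genes, with a median of 0.83 that came from 0.19 in WT, 0.56 in C54Y and 1.38 in KO. After trend removal 5 were higher and 2 lower, against 30.1% and 25.3% of all genes, with a median of 0.47. Actb and Actg1, the cytoplasmic actins, rose 2.26-fold and 2.17-fold, and Tead1, the partner of YAP, fell 3.32-fold with a transcript of 9964 bases, a call lost after trend removal (adjusted p = 0.105). Ctgf, a matricellular target, rose by 0.03 in WT, 0.65 in C54Y and 1.63 in KO, and its call was lost without the C54Y pair (adjusted p = 0.073), with TMM factors (0.0594) and after trend removal (0.252). Cyr61 was not called (-1.10, -0.65 and 1.44). The trophectoderm list, with markers of the placental lineage, had 7 of 16 higher and 1 lower. Its median of 0.71 came from 0.10 in WT, 0.75 in C54Y and 1.75 in KO. With scaling to total reads that median was 0.33. Of the 16, 2 reached 10 in fewer than 2 replicate 1 libraries and would not have passed without replicate 2. Of the other 14, 6 rose and 1 fell (median 0.67), against 33.4% higher among all genes at 10 in 2 libraries of each number. Hand1, a helix-loop-helix factor, went from 94.1, 51.7 and 18.2 to 355, 210.4 and 125 (2.17 ± 0.25), and the keratin gene Krt7 rose 3.30-fold, a call lost without the C54Y pair (adjusted p = 0.0658). Gata3 was not called. Summed trophectoderm markers stood at 50.4 to 171 normalized counts in replicate 1 and 215 to 273 in replicate 2, with none at 0 in all libraries.

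Both lists of ribosomal protein genes rose in full, and most genes of oxidative phosphorylation and the proteasome rose, against 32% of all genes. All 43 cytosolic ribosomal protein genes rose, with 42 not overlapping and a median of 1.38. After trend removal the median was 0.57 and 40 of 43 were higher, against 30.1% of all genes. Rplp1, a protein of the large subunit's stalk, went from 56286, 62262 and 70103 normalized counts in WT, C54Y and KO to 182261, 189333 and 218170 (1.65 ± 0.07, adjusted p = 6.01e-07), 3.13-fold. Rps2, a small subunit protein, rose 2.47-fold. As a share of reads, 81 ribosomal protein genes took 9.01% to 9.09% under number 1 and 16.5% to 17.2% under number 2, with a 2-sided exact sign-flip p of 0.25, the smallest possible. All 21 mitochondrial ribosome genes rose (median 1.43, and 0.71 after removal), Mrpl12 by 3.33-fold. Of 38 nuclear genes of oxidative phosphorylation 36 rose and 1 fell (median 1.29, and 0.66 after removal), among them the ATP synthase subunits Atp5g1 (3.63-fold) and Atp5d (3.40-fold). Of 31 proteasome genes 24 rose and 1 fell (1.06, and 0.55 after removal), and Psmb5, a catalytic subunit, rose 2.99-fold. These lists share short transcripts, with medians of 1106 to 1819 bases against 3252 for all genes. Ribosomal protein genes have many processed copies elsewhere in the genome, so how reads were assigned could alter their values.

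Ribosome assembly and RNA of the ribosomal locus rose with less uniformity. Of 28 ribosome biogenesis genes 18 rose and 9 fell, against 32% and 32.8% of all genes (median 0.66). Nhp2, a snoRNP protein, rose 3.39-fold and Fbl, the fibrillarin methylase, 2.56-fold, whereas Nop58 (-1.81) and the nucleolin gene Ncl (-1.01), which have GC contents of 41.0% and 42.8%, fell. After trend removal both were called higher (0.80 and 1.12). Rn45s, the precursor of the ribosomal RNAs, which carries no length or GC value in the annotation used, stood at 148462, 150190 and 211662 normalized counts in replicate 1 and 851783, 614258 and 675239 in replicate 2 (2.08 ± 0.13, adjusted p = 2.11e-06). Rmrp and Rpph1, short catalytic RNAs without a poly(A) tail, chosen after their values were seen, rose 5.84-fold and 4.74-fold. After trend removal they stood at 1.52 and 1.35. Terc, the telomerase RNA, also chosen after its values were seen, was not called (-0.64). Its counts were low, 4.48, 9.52 and 18.2 in replicate 1 and 2.57, 5.20 and 10.2 in replicate 2. After trend removal Terc was called lower (-1.61, adjusted p = 0.0079). Replication-dependent histone genes, whose mRNAs lack a poly(A) tail, were scarce: 13 of 42 in the table were below the limit, and 16 of the 29 tested reached 10 in fewer than 2 replicate 1 libraries and would not have passed without replicate 2. Of the other 13, 12 rose and none fell (median 1.30), against 33.4% higher among all genes at 10 in 2 libraries of each number. After trend removal, 5 of the 29 were called higher and 1 lower, against 30.1% and 25.3% of all genes. Their members share sequence closely, so reads could be split among copies. Hist1h1a, a linker histone, went from 5.23, 22.4 and 26.1 to 68.2, 112 and 78.9.

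Cell-cycle genes moved in both directions. Of 26 genes of the G1/S transition and replication 16 rose and 4 fell (0.56, 0.50 after removal and 0.18 with scaling to total reads). Over all genes 32% rose and 32.8% fell. Ccne1, a cyclin of S-phase entry, rose 2.39-fold and Tk1, thymidine kinase, 2.61-fold, whereas Ccne2 fell 16.1-fold (GC 36.3%) and the polymerase gene Pola1 17.5-fold (41.5%). After trend removal Ccne2 and Pola1 were still called lower (-1.73 and -2.13). Of 25 mitotic genes 12 fell and 9 rose, against 32.8% and 32% of all genes, with a median of -0.24. After removal 10 were lower and 9 higher, against 25.3% and 30.1% of all genes, with a median of 0.10. Cenpf, a kinetochore protein with a transcript of 11130 bases, went from 8299, 8734 and 9125 to 422, 499 and 360.2 (-4.36 ± 0.14, adjusted p = 5.04e-07), and Cenpe, Bub1 and Kif11 fell 17.1-fold, 12.3-fold and 12.1-fold. These 4 were still called lower after removal of the transcript trend (-2.09, -2.01, -2.17 and -1.93) and nearer 0 after removal of the coding trend (-0.83, -0.49, -0.30 and -0.66). Ccnb2 rose 1.60-fold, a call lost after trend removal (adjusted p = 0.0503), and Ccnb1, the mitotic cyclin, was not called (0.08).

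Pluripotency genes moved in both directions. Of 16 core genes 10 rose and 5 fell, against 32% and 32.8% of all genes. Their median was 0.64, with 0.22 after removal and 0.26 with scaling to total reads. Pou5f1 went from 32384, 36877 and 55256 normalized counts to 84886, 95864 and 122969 (1.31 ± 0.08, adjusted p = 2.29e-06). It stood at 0.30 after trend removal (adjusted p = 0.0245) and at 0.83 with the coding trend removed. Utf1, a chromatin factor of stem cells, rose 3.19-fold and Trim28, a corepressor, 2.45-fold (0.63 and 0.89 after trend removal). Rif1, a replication timing factor long counted among stem cell genes, went from 13994, 14897 and 16124 to 266, 526 and 354 (-5.34 ± 0.17), and Zfp281 fell 9.79-fold. Sox2 fell slightly (-0.34 ± 0.12, adjusted p = 0.0268), a call lost without the C54Y pair (0.066) or the KO pair (0.0684). After trend removal Sox2 was called lower (-0.74, adjusted p = 0.000198). Nanog overlapped between the numbers (-0.15, not called). Naive genes numbered 6 higher and 8 lower of 20 (median -0.05), shares near the 32% and 32.8% of all genes. The rises included Klf2 (1.06), Dppa3 (1.00) and Sox15 (0.98), named after their values were seen. Zfp42 fell in all 3 genotypes (-0.92 ± 0.15), and so did Tet2 (13.6-fold), Klf5 (3.34-fold) and Spp1 (3.25-fold), and all 4 were still lower after trend removal. Esrrb was not called (0.12). With scaling to total reads, Nanog was called lower (-0.53) and so was Esrrb (-0.26).

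Among formative and primed genes, which mark exit from the naive state, 8 of 17 rose and 1 fell (0.38). Their median was 0.28 after trend removal and 0.0 with scaling to total reads. Over all genes 32% rose and 32.8% fell. Dnmt3a, a methyltransferase of new DNA methylation, went from 6422, 6432 and 4074 to 17374, 12630 and 7517 (1.10 ± 0.13), and Lef1, a Wnt pathway factor, from 173, 129 and 135.5 to 862, 349 and 339.8. Sox4 fell 4.07-fold, and the epiblast markers Fgf5 and Otx2 were not called. Lineage lists were near level in the median: primitive endoderm 0.07 (3 higher and 2 lower of 18), mesoderm and streak -0.16 (4 and 3 of 15) and neural 0.19 (3 and 4 of 14). With scaling to total reads these medians were -0.26, -0.53 and -0.18. Each list holds members that would not have passed the limit without replicate 2. Among members at 10 in 2 libraries of each number, the counts were 2 and 2 of 16, 3 and 3 of 14, and 2 and 4 of 11. Among all such genes 33.4% rose. Gata4 and Gata6, the factors of primitive endoderm, were not called. With scaling to total reads both were called lower (-0.54, adjusted p = 0.0255, and -0.70, adjusted p = 0.0464). After trend removal Gata4 was called lower (-0.53, adjusted p = 0.0214) and Gata6 was not (-0.60, adjusted p = 0.0919). In mesoderm, T (brachyury) went from 173, 104 and 6.08 to 21.9, 7.79 and 10.2, and its call (-1.91, adjusted p = 0.0316) was lost without the WT pair (0.231) or the C54Y pair (0.223). Among neural genes Neurod1 fell 4.42-fold and Tubb3, a neuronal tubulin, rose 2.22-fold.

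The stress and metabolic lists described here differed among themselves. Over all genes 32% were called higher and 32.8% lower. Of 17 NRF2 targets 13 rose and 2 fell (0.88, and 0.52 after removal), with Fth1, a ferritin chain, at 12463, 11870 and 14575 in replicate 1 and 37232, 31631 and 37537 in replicate 2. Hmox1, heme oxygenase, rose 2.23-fold. Of 33 hypoxia and glycolysis genes 20 rose and 7 fell (0.48, 0.53 after removal and 0.11 with scaling to total reads). Aldoa rose 2.76-fold and Gapdh 2.30-fold, whereas Slc2a1 was not called. Of 23 ATF4 targets 14 rose and 2 fell (0.57, 0.15 after removal and 0.19 with scaling to total reads). Atf4 itself rose 2.16-fold, and Ddit3 was not called. Heat shock genes were split, 7 higher and 4 lower of 16 (0.07). Hsp90aa1, the inducible HSP90, went from 159053, 144765 and 205157 to 17822, 21409 and 17053 (-3.17 ± 0.14), whereas its close relative Hsp90ab1 rose 1.79-fold, and Hspa1a and Hspa1b, the strictly inducible HSP70 genes, were not called. Hsp90aa1 has a GC content of 43.7% and Hsp90ab1 51.0%, and after trend removal they stood at -2.33 and 0.50. Slc2a1, Ddit3 and Hspa1b were called lower with scaling to total reads (-0.46, -0.65 and -0.72). They were also called lower after trend removal (-0.41, -0.51 and -0.85).

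Targets of p53 had a median of -0.38, which was -0.40 with the transcript trend removed and -0.69 with the coding trend removed. Of 22, 10 fell and 6 rose, against 32.8% and 32% of all genes. Trp53inp1, a p53-induced nuclear protein, went from 11426, 7905 and 8964 to 616, 491 and 320.8 (-4.34 ± 0.16), Mdm2, the ligase of p53, fell 2.75-fold and Ccng1, cyclin G1, 3.54-fold. Cdkn1a, the p21 inhibitor, rose 1.72-fold, a call lost after trend removal (0.16, adjusted p = 0.26) and with scaling to total reads (0.41, adjusted p = 0.0511), and its sign turned with the coding trend removed (-0.12). After removal of the transcript trend 14 of 22 were lower and 3 higher, against 25.3% and 30.1% of all genes. Among THAP1 and its cofactors 7 of 13 rose and 3 fell (0.68, and 0.15 after removal). The family members Thap4 and Thap7 rose 2.18-fold and 2.37-fold, the latter a call lost after trend removal (0.15, adjusted p = 0.369), and Ogt, the X-linked glycosyltransferase, fell 5.64-fold. Hcfc1, the X-linked scaffold that binds THAP proteins, was not called (-0.22), but it was called lower with TMM factors (-0.33) and with scaling to total reads (-0.60). Over all 53 lists the median difference was above 0.5 in 19, below -0.5 in 4 and between these bounds in 30.

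**Figure D5:**
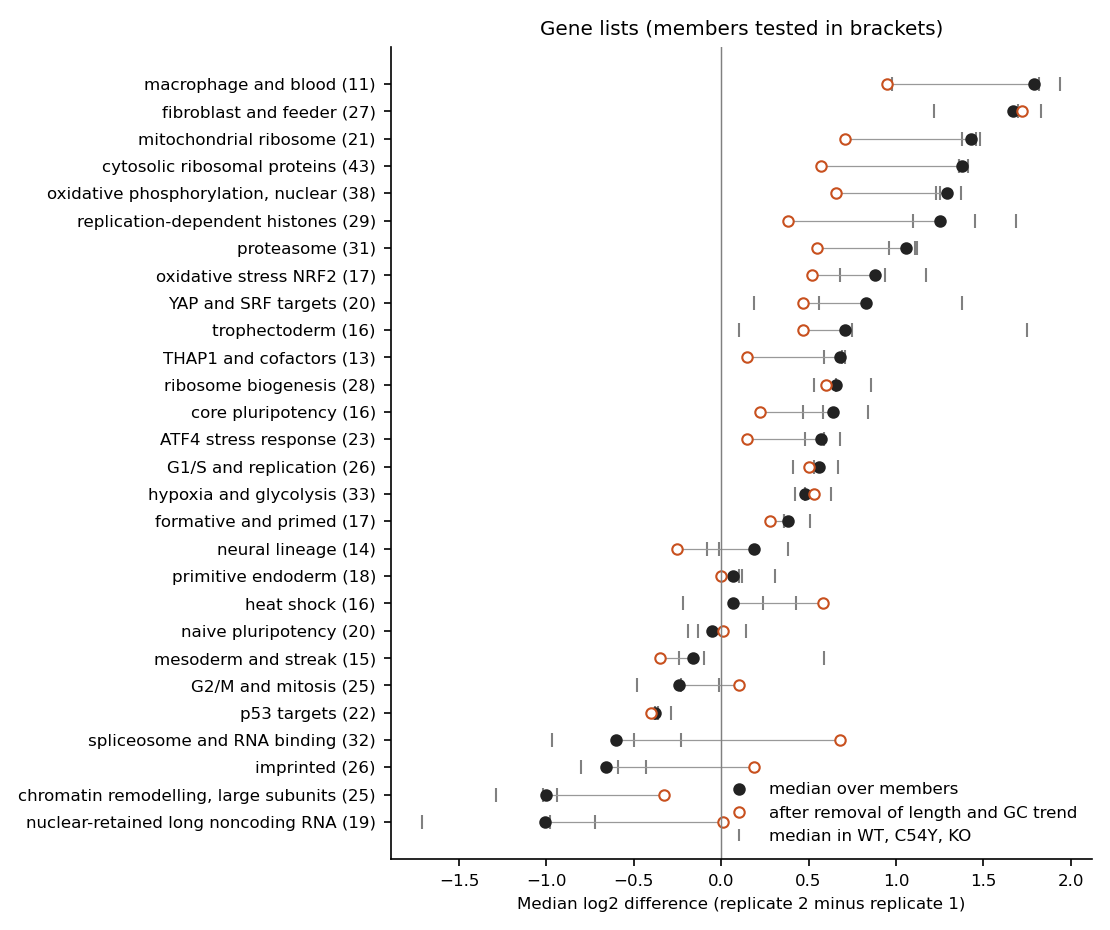
Median log2 difference, replicate 2 minus replicate 1 (horizontal axis), for 28 gene lists, with the number of members tested in brackets. Filled circles are medians over members, open circles the same after removal of the length and GC trend, and ticks the medians in the 3 genotypes. The macrophage, histone, trophectoderm, neural, primitive endoderm, mesoderm and fibroblast medians include 1 or more members that would not have passed the limit without replicate 2. The fibroblast, primitive endoderm, imprinted and long noncoding RNA medians each include 1 that would not have passed without replicate 1. Fibroblast genes keep their median (1.67 and 1.72), whereas ribosomal protein genes go from 1.38 to 0.57 and spliceosome genes from -0.60 to 0.68.

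Chromosome medians ran with the base composition of their genes. Among chromosomes with more than 1 gene tested, they were highest on chromosome 7 (0.37, median GC content 52.9%) and lowest on X (-0.48, 45.9%) and 13 (-0.41, 46.5%). After trend removal they were 0.14, -0.13 and 0.02. X was -0.51, -0.30 and -0.82 in WT, C54Y and KO before removal and -0.15, 0.04 and -0.23 after.

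Of the genes tested, 11986 had differences of the same sign in all 3 genotypes (78.4%). In 15 of 11353 genes with a mean normalized count of at least 100, 2 genotypes differed by over 2-fold in opposite directions, and in all 15 the difference was negative in WT and positive in KO.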

How the data were processed

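RNA sequencing of 6 libraries was analysed. The authors deposited 1 table of signal values, normalized counts per gene, that is reads divided by 1 factor per library. Per the submitters' processing notes the tools were CASAVA, Trimmomatic, TopHat2 2.1.0, HTSeq and DESeq2 with build mm9; annotation, strand setting and filters are not given in the sources used here. Dividing each library's values by its smallest step gave whole reads for all genes (tolerance 1e-06), and 0 columns were left unused.

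Genes reaching 10 in 2 or more libraries entered a fit of limma 3.58.1 (with trend and robust options, R 4.3.3), on log2 values with a pseudocount of 2, with genotype as a block and Benjamini-Hochberg adjustment at 0.05. The fit has 2 residual degrees of freedom per gene. Each gene's variance is drawn toward a trend over all genes, with a median of 6.84 prior degrees of freedom. The SE and p-values therefore rest in large part on the spread of other genes. The labels give the genotype of each library and name no clone, so the pairing is by genotype alone. As a check, deviations of the 2 libraries of a genotype from the means of their replicate number correlated at 0.656 (WT), 0.222 (C54Y) and 0.586 (KO). Nothing says that the 2 libraries of a genotype came from separate cultures. The p-values thus measure only spread between these samples, of the gene and of others, which may be technical. edgeR 4.0.16, limma-voom and DESeq2 1.42.0 on the recovered reads, other scalings, pseudocounts, filters and the omission of each pair were alternatives. The trend in length and GC content was a joint smooth (mgcv 1.9.3) of each library's log2 deviations from the gene's mean on the longest GENCODE M21 transcript, for 15169 of 15287 genes (99.23%). Chromosomes came from RefSeq symbols of GRCm38.p6 for 15221 genes (99.6%).

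Genes were named by rule: the 10 largest differences each way among genes called, with a mean of at least 100, the same direction in all genotypes and no overlap; for each list up to 4 members with the smallest p and its first 2 members; 8 fixed genes; and up to 6 genes with opposite directions in different genotypes. Genes outside it are said to be chosen after values were seen, and some genes the rule names are not reported here. The comparison, members and lists were chosen with earlier results of these data known.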

Additional observations from a re-analysis of the deposited data

Results flagged for a closer look

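Among genes with a mean normalized count of at least 100, 15 had differences of over 2-fold in opposite directions in 2 genotypes. Of the 6 with the widest gap, 5 are given here: each is negative in WT and positive in KO, and with 1 pair per genotype the difference between genotypes was not tested. Tgfb2, a growth factor, stood at -2.44 in WT and 1.27 in KO, and Anxa3, an annexin, at -1.56 and 1.75. Krt19, a keratin, stood at -1.29 and 2.01, with 2017, 1289 and 179 counts in WT, C54Y and KO of replicate 1 and 825, 759 and 727 in replicate 2. The skeletal actin gene Acta1 stood at -1.65 and 1.55, and the myelin protein gene Pmp22 at -1.23 and 1.75. In all 5 genes KO of replicate 1 was the lowest library of the 6.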

How the results depend on the processing

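Calls per direction were within 1.5 times the reported counts under every planned or added alternative except scaling to total reads, where genes called higher numbered 2931 against 4899. Over 2-fold in all 3 genotypes, 414 genes were higher with that scaling (1302 reported) and 805 with the coding length and GC trend removed, an alternative chosen after seeing the data; 1055 genes were lower with the transcript trend removed and 1151 with the coding trend removed (2626 reported). The mean of the genotypes' medians was 0.062 with the stricter filter, -0.090 with TMM factors, -0.355 with scaling to total reads and 0.051 with the trend removed. Without the genotype block, 3868 genes were called higher and 4259 lower, and of 181 genes checked 12 lost their call: Amn, Cdx2, Ctgf, Cubn, Dnmt3b, Lrp2, Ndufa1, Pax6, Sox2, T, Wnt3 and Zfp42. No paired analysis by replicate block was possible because the replicate number is itself the factor compared; the pairing used is by genotype. Signs reversed with the transcript trend removed for Cd68 (-0.58), Nr5a2 (0.02), Cubn (0.53), Rbm25 (0.26), Srsf1 (0.96), Nop58 (0.80), Ncl (1.12), Slc2a3 (0.13), Chordc1 (0.76) and Rian (1.78). With the coding trend removed they reversed for Esrrb (-0.26), Lrp2 (0.16), Cubn (1.48), Srsf2 (-0.02), Ndufa1 (-0.36), Nop58 (0.68), Ncl (0.82) and Cdkn1a (-0.12). With scaling to total reads they reversed for Esrrb (-0.26) and Ccnb1 (-0.30). The cause was not tested. No list with a median beyond 0.5 either way changed sign under TMM, total reads, edgeR or the omission of a pair, and 3 of 22 did with the transcript trend removed. Depth limits genes near 10 counts, such as Emr1 and Tyrobp.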
